A study of Caenorhabditis elegans with 4 samples.

Results

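The data described here are the transcript levels of 37 nuclear genes for the respiratory chain and the mitochondrial ATP synthase, out of 41560 gene symbols, in wild-type neurons of *C. elegans* labeled by *Pacr-2*::*gfp*. The genes were chosen by name from the symbols in the deposited values, with earlier results of these data known. The rule took the stems *nuo*, *nduf*, *sdha*, *sdhb*, *sdhd*, *ucr*, *cox*, *cco*, *atp*, *asb* and *asg*, with 5 further genes such as *lpd-5*, *mev-1*, *cyc-1* and *isp-1*. The rule left out the mitochondrially encoded *atp-6*, which had no row in the deposited values. The neurons came from young adults of strain CZ631, which carries the *juIs14* [*Pacr-2*::*gfp*] transgene and was grown for 72 hours at 20°C, and they were isolated by FACS from pooled animals. The study has 4 samples, and the 2 samples from strain CZ5808, which carries *acr-2(gf)* beside the same transgene, were not analysed here. The transgene marks cholinergic motoneurons of the ventral cord and also some unidentified neurons of the head and tail, so each library is a mixture of neurons. The values are FPKM, fragments scaled to transcript length and to the mapped reads of the library, from 2 libraries (n = 2, called library 1 and library 2). Only 1 condition was used, so no groups could be tested against each other, and the read count behind each value is unknown.

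The respiratory chain passes electrons from NADH and succinate to oxygen through complexes I to IV of the inner mitochondrial membrane, and the proton gradient that it builds drives the ATP synthase. Most subunits are encoded in the nucleus and a small core is encoded in the mitochondrial genome, so the complexes are built from 2 sets of genes. Neurons rely on this supply of ATP for ion pumping and synaptic transmission, and in *C. elegans* mutants of *isp-1*, *mev-1* and *clk-1* are classic models of altered respiration and lifespan. No row of the deposited values lay on the mitochondrial genome, so its genes could not be analysed here. No sequences are shown, because no table of sequences was used here.

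In the wild-type neurons, 36 of the 37 genes had an FPKM over 10 in both libraries, the study's limit for an expressed gene. Of all 41560 gene symbols 16.5% passed the same limit, and of the 19304 annotated protein-coding genes 34.0% passed. The paper reports far fewer expressed transcripts at this limit, and the reason for the difference was not tested. Expressed genes are here those that passed the limit in the deposited values, and they are not the paper's list. Whether the 37 genes are in that list was not tested. The median of the 37 means was 230.0 FPKM, against 45.7 FPKM over the 6840 expressed genes. In 26 of the 37 genes FPKM was over 100 in both libraries, a level that 24.6% of expressed genes and 4.05% of all symbols reached. The mean was over 100 FPKM in the same number, against 28.6% of expressed genes. The 37 genes held 0.788% of the summed FPKM in library 1 and 0.857% in library 2. Their own sum was 14404 FPKM in library 1 and 14255 FPKM in library 2, while the sum over all symbols was in library 2 0.911 times that of library 1. Of the 37 genes, 31 lay above the median of the expressed genes and 11 lay in the highest 10% of them. The range was wide, from 5.27 ± 2.38 FPKM for *cox-10* to 1758 ± 112 FPKM for *nuo-3* (SD, n = 2). By complex, the medians were 217.9 FPKM for the 12 genes of complex I, 305.3 FPKM for the 5 of complex II, 212.2 FPKM for the 6 of complex III, 1249 FPKM for the 2 subunits of complex IV and 713.7 FPKM for the 8 genes of the ATP synthase. The remaining 4 genes, *cox-10*, *cox-11*, *cox-15* and *cox-17*, encode factors that assemble complex IV and are not part of it, and their median was 29.2 FPKM. In the plot of levels by complex, *cox-10*, *cox-11* and *cox-15* are among the lowest genes, as is 1 paralog each of complexes II and III (*sdha-2* and *ucr-2.3*).

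**Figure D1:**
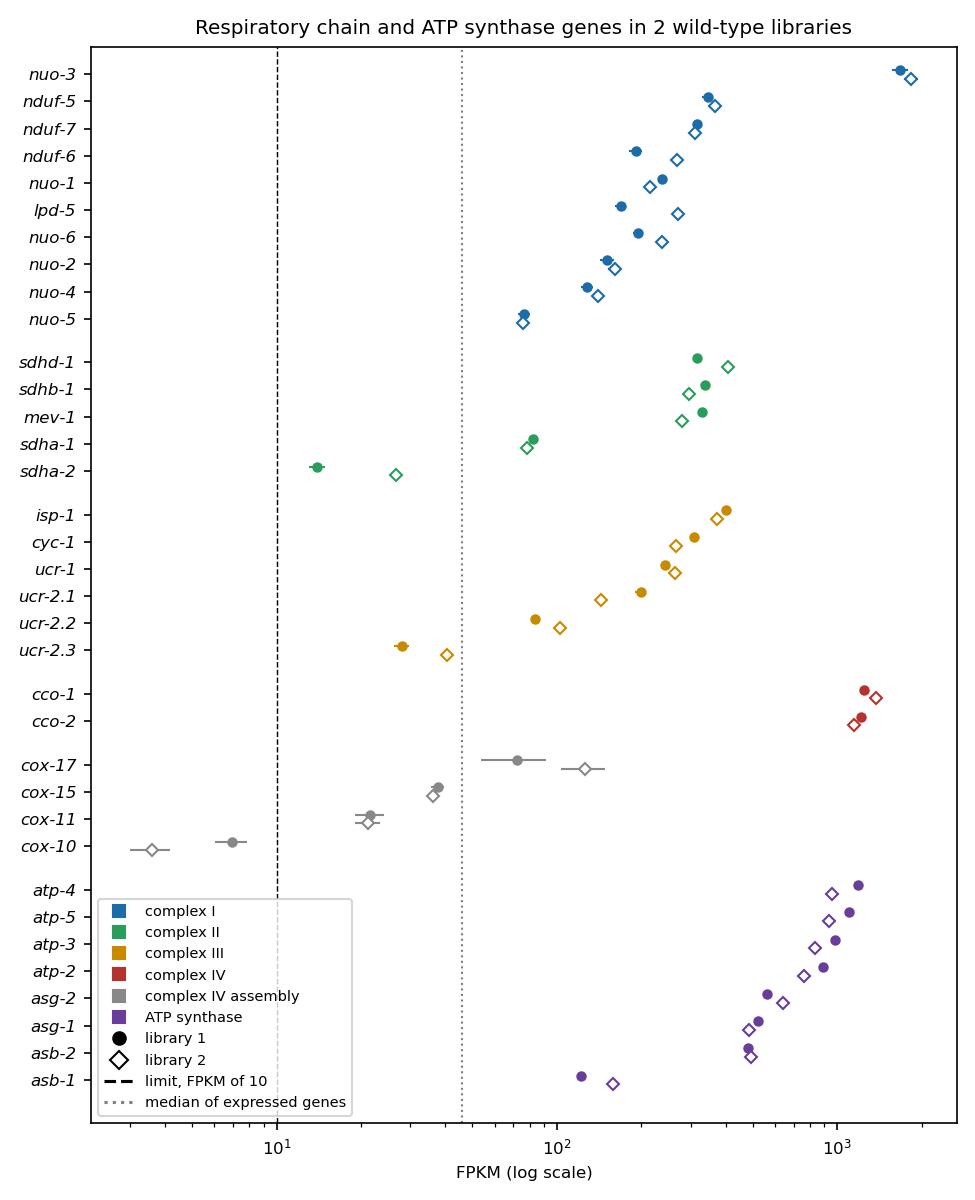
FPKM (log scale) of 35 of the 37 genes in wild-type library 1 (filled circles) and library 2 (open diamonds), colored by complex, with the 95% interval that Cufflinks gives as horizontal lines. The dashed line is the limit of 10 FPKM, which only *cox-10* missed, and the dotted line is the median of expressed genes, 45.7 FPKM.

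Complex I, the NADH dehydrogenase, had 12 of 12 genes past the limit. Among those for its electron-carrying core, *nduf-7*, the gene of an iron-sulfur subunit, had 315 FPKM in library 1 and 310 FPKM in library 2. *nuo-1*, which encodes the flavin-binding subunit that takes electrons from NADH, had 237 and 216 FPKM, and *nuo-2*, of the NDUFS3 type, had 151 and 161 FPKM. These genes kept their order in both libraries. *nuo-5*, which encodes the large iron-sulfur subunit of the NDUFS1 type, was the lowest of these 4 core genes at 76.4 and 75.8 FPKM. The accessory subunits *nduf-5*, *nduf-6*, *lpd-5*, *nuo-6* and *nuo-4* had means of 356 ± 15.0, 230.0 ± 54.9, 220 ± 71.8, 216 ± 29.4 and 134 ± 8.91 FPKM (SD, n = 2 for each). The 3 in the middle of that order differed by less than the spread between the libraries. *lpd-5*, of the NDUFS4 type, had 169 and 270.3 FPKM and differed most between the libraries of all complex I genes, 1.60-fold.

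The highest gene of the 37, *nuo-3*, rests on an uncertain row. The deposited values have 2 adjacent rows under this symbol, which do not overlap. The higher one, used by the rule, had 1679 FPKM in library 1 and 1838 FPKM in library 2, and the lower one had 481 and 527 FPKM. Their ratio was 3.49 in library 1 and 3.48 in library 2. In the WBcel235 annotation *nuo-3* (WBGene00013308, chromosome IV, 14796419 to 14797544, − strand) overlaps a second protein-coding gene on the same strand (WBGene00303007, 14796422 to 14797514). The rows were not assigned to these genes. With the lower row, 504 ± 32.4 FPKM (SD, n = 2), *nuo-3* was still the highest of the 12.

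Complex II, the succinate dehydrogenase, has 4 kinds of subunit, and 5 genes were listed for them. *sdhd-1* and *mev-1*, which encode the membrane anchors, and *sdhb-1*, which encodes the iron-sulfur subunit, had similar means but were further apart in library 2. *sdhd-1* had 317 and 409 FPKM, *sdhb-1* had 337 and 296 FPKM, and *mev-1* had 330.1 and 281 FPKM. The 3 means lay within 1.19-fold of each other, and their order changed between the libraries. The flavoprotein genes were lower in both libraries. *sdha-1* had 82.3 FPKM in library 1 and 78.1 FPKM in library 2, and its paralog *sdha-2* had 13.98 and 26.7 FPKM. Added together, the flavoprotein genes reached 101 ± 6.02 FPKM (SD, n = 2), still below each of the other 3 subunit genes in both libraries. The spliced transcripts of *sdha-1* (2400 bp) and *sdha-2* (2035 bp) are also the longest of the complex, against 604 to 1053 bp for the other 3.

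Complex III, the cytochrome bc1 complex, had 6 of 6 genes past the limit. *isp-1*, which encodes the Rieske iron-sulfur protein, had 403 and 373 FPKM, and *cyc-1*, which encodes cytochrome c1, had 308 and 267 FPKM. *ucr-1*, for a core protein, had 242 and 263 FPKM. *isp-1* was the highest in both libraries, while *cyc-1* and *ucr-1* had nearly the same value in library 2. The second core protein has 3 genes, *ucr-2.1*, *ucr-2.2* and *ucr-2.3*, none of which reached *ucr-1* alone. Their summed level was 311 FPKM in library 1 and 287 FPKM in library 2, a mean of 299 ± 16.8 FPKM (SD, n = 2) beside 253 ± 14.7 FPKM for *ucr-1*.

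Complex IV, the cytochrome c oxidase, was represented among subunits by *cco-1* and *cco-2*, older symbols for *cox-5B* and *cox-5A*. *cco-1* had 1249 and 1376 FPKM, and *cco-2* had 1221 and 1153 FPKM. They were higher than every other one of the 37 genes except *nuo-3* (higher row) in both libraries. Those for assembly were far lower. *cox-17*, a copper chaperone, had 72.4 and 126 FPKM, with a wide Cufflinks interval of 53.6 to 91.2 FPKM in library 1. *cox-15*, the heme A synthase, had 37.7 and 36.3 FPKM, and *cox-11*, which brings copper to the oxidase, had 21.6 and 21.2 FPKM. *cox-10*, the farnesyltransferase that makes heme O, had 6.96 and 3.58 FPKM and was the 1 gene that missed the limit in both libraries. The lower bound of each of the other 36 genes was over 10 FPKM in both libraries.

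The ATP synthase had 8 of 8 genes past the limit, and 4 of them lay close together near the top of the range. *atp-4* (coupling factor 6) had 1185 and 955 FPKM, *atp-5* (subunit d) had 1100.1 and 939 FPKM, *atp-3* (the oligomycin sensitivity subunit) had 984 and 831 FPKM, and *atp-2* (the catalytic beta subunit) had 887 and 761 FPKM. All 4 were lower in library 2, by a similar factor. The gene for the alpha subunit is listed in the files by its sequence name, H28O16.1, now *atp-1*, so it was not among the 37. It had 969 FPKM in library 1 and 908 FPKM in library 2, and the means of the 5 genes lay within 1.299-fold of each other. The enzyme holds several copies of the alpha and beta subunits for each stalk subunit, and *atp-2* had the lowest level of the 5 genes in both libraries.

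Paralogs differed in how evenly they shared their level. The stator subunit b has 2 genes. *asb-2* (WBGene00000207, chromosome X, 4469766 to 4471476 in WBcel235) had 481 and 494 FPKM, and *asb-1* (WBGene00000206, chromosome III), known as the germline form of this subunit, had 122 and 159 FPKM. *asb-2* was 3.93-fold above *asb-1* in library 1 and 3.11-fold in library 2. The genes for subunit g were close to even. *asg-2* had 564 and 643 FPKM and *asg-1* had 522 and 485 FPKM, a ratio of 1.08 and 1.33. Summed, the subunit g pair reached 1107 ± 29.9 FPKM (SD, n = 2), near *atp-4* at 1070.3 ± 163 FPKM, while the subunit b pair reached 628 ± 35.5 FPKM.

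The *sdha* and *ucr-2* families were uneven to different degrees. *sdha-1* was 5.89-fold above *sdha-2* in library 1 and 2.92-fold in library 2. *ucr-2.1* had 199 and 144 FPKM, *ucr-2.2* had 83.5 and 102 FPKM and *ucr-2.3* had 28.1 and 40.5 FPKM. *ucr-2.1* thus made up 64.1% of the family in library 1 and 50.2% in library 2, with *ucr-2.3* at 9.03% and 14.1%. In each family the order was the same in both libraries. The ratio differed over 1.5 times between the libraries for *sdha-1* over *sdha-2* and for *ucr-2.1* over *ucr-2.2* or *ucr-2.3*. The lower paralog (*asb-1*, *sdha-2* and *ucr-2.3*) had a higher FPKM in library 2 in 3 of the 4 families, whereas *asg-1* had a lower one. Reads of paralogs could have been shared between them, which was not tested.

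**Figure D2:**
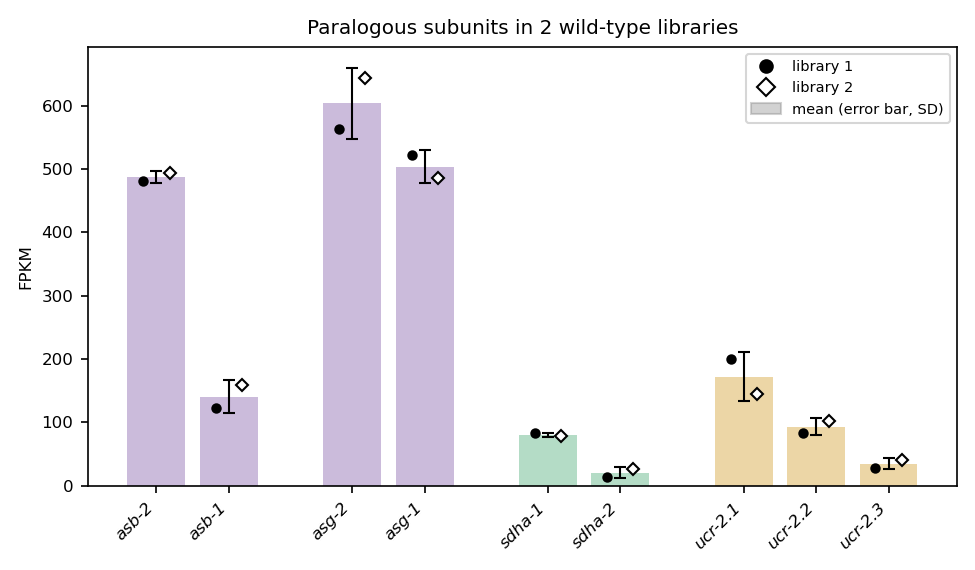
FPKM of paralogous genes in wild-type library 1 (filled circles) and library 2 (open diamonds), with the mean as bars and the SD over n = 2 libraries as error bars. The *asg* pair is nearly even, and in the other families the highest gene is at least 1.41-fold above the next in each library.

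Some markers of other tissues passed the limit in the libraries, and the source of their reads was not tested. From an overlap of its expressed genes with published tissue sets, the paper proposes that its samples held relatively little non-neuronal contamination. All 6 cholinergic and all 8 pan-neuronal markers passed 10 FPKM in both, as did 7 of 8 markers of body-wall muscle, 8 of 9 of the germline and 5 of 7 of the intestine. Fewer passed for GABAergic neurons (3 of 5), hypodermis (3 of 6), pharyngeal muscle (2 of 4) and sperm (2 of 6), beside 34.0% of all protein-coding genes. The summed germline markers were 1036 FPKM in library 1 and 1123 FPKM in library 2, with *cpg-2* highest and *glp-1* lowest at 4.23 and 9.80 FPKM. Those of body-wall muscle summed to 8538 and 8241 FPKM, those of the hypodermis to 7085 and 8291 FPKM and those of the intestine to 4948 and 2426 FPKM. In muscle, *pat-10*, *mlc-3* and *act-4* made up most of the sum. The myosin genes *unc-54* and *myo-3* had 178 and 138 FPKM and 8.43 and 13.6 FPKM. The hypodermal sum was mostly *col-140* (4857 and 5608 FPKM) and *col-19* (2214 and 2652 FPKM), while *rol-6*, *dpy-7* and *bli-1* had at most 3.50 FPKM. Of the intestinal markers, *elt-2* and *ges-1* had at most 5.36 FPKM. Pan-neuronal markers summed to 12537 and 13861 FPKM and cholinergic ones to 1014 and 1363 FPKM. GABAergic markers summed to 270.0 and 659 FPKM, mostly *unc-25* (226 and 536 FPKM). The paper describes its expressed genes as holding relatively few transcripts enriched in GABAergic motoneurons. The part of cells of other tissues in the FPKM of the 37 genes, that of the germline in *asb-1* included, was not tested. In bulk libraries fewer cells of a type and less RNA per cell cannot be told apart.

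The libraries were compared by log2((library 2 + 1)/(library 1 + 1)), from which the median over the expressed genes, 0.12, was subtracted. Both are wild type, so these ratios measure only the spread between the samples, which may be technical, since the sources used here do not say whether they came from separate cultures. The median over the 36 expressed genes was -0.11, with 14 genes above 0 and 22 below. None of the 36 differed more than 2-fold with Cufflinks intervals apart, as against 12.5% of all expressed genes. The uncentred FPKM of the libraries lay within 1.5-fold for 33 of the 37 genes, and for 64.5% of expressed genes. Many of the 37 genes have high levels. Among those with a mean over 100 FPKM, 25 of 26 lay within 1.5-fold, and among the 1959 expressed genes with such a mean 69.7% did. The exceptions to the 1.5-fold band were *sdha-2* (1.91-fold) and *cox-17* (1.75-fold), both higher in library 2, *lpd-5* (1.60-fold, also higher in library 2) and *cox-10*, whose library 2 value was 0.515 times that of library 1.

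The Cufflinks intervals of the libraries were apart for 13 of the 36 expressed genes with a higher level in library 2 and for 13 with a lower level, and among all expressed genes for 45.6% in the first direction and 30.1% in the second. So an interval that did not overlap was common in replicates of 1 genotype. The centred log2 ratios of *atp-2*, *atp-3*, *atp-4* and *atp-5* were -0.43 to -0.34, that of *atp-1* was -0.21, and genes of other complexes had similar values (*mev-1* -0.36, *cyc-1* -0.33 and *sdhb-1* -0.30). Those of the *asb* and *asg* genes ranged from -0.23 for *asg-1* to 0.26 for *asb-1*. The median centred log2 ratio of expressed markers was -0.27 for body-wall muscle (0 of 7 above 0), -1.204 for the intestine (0 of 5), -0.40 for pharyngeal muscle (0 of 2) and 0.04 for the germline (5 of 8). It was 1.12 for GABAergic (3 of 3 above 0), 0.33 for pan-neuronal (5 of 8), 0.18 for cholinergic (3 of 6), 0.14 for hypodermal (3 of 3) and 0.10 for sperm markers (1 of 2). The part of these tissues in the ratios of the 37 genes was not tested.

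**Figure D3:**
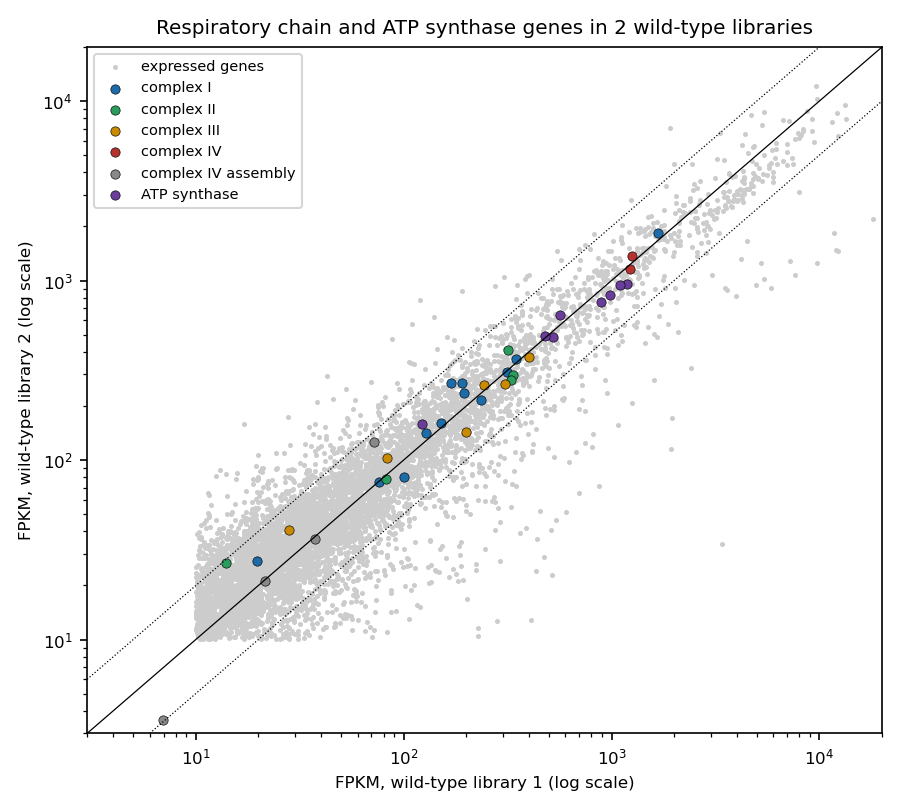
FPKM of expressed genes (grey) and of the 37 genes (colored by complex) in wild-type library 1 and library 2, both on log scales. The solid line marks equal values and the dotted lines a 2-fold difference, and all 37 genes lie between the dotted lines, with *sdha-2* and *cox-10* nearest to them.

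Transcript length went with level. Across the 37 genes Spearman's rho between mean FPKM and the longest spliced transcript in WBcel235 was -0.48, and across 6572 expressed protein-coding genes it was -0.28. Genes share the libraries and are not independent, so this is only a description. The 37 transcripts had a median of 1026 bp, against 1297 bp over those expressed genes. On the genome the 37 genes are spread over all chromosomes, with 11 on I, 5 on II, 9 on III, 3 on IV, 3 on V and 6 on X. In WBcel235, 3 of them overlap another protein-coding gene on the same strand and 9 overlap one on the opposite strand (*cyc-1* and *ucr-2.2* among them). The strand of the reads is not stated, so the reads of such pairs may be mixed.

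Many subunits were deposited under sequence names and so fell outside the rule. Through the RefSeq table, 32 such genes with a current symbol of these complexes were found after the values had been seen, 23 of them of complex I and 3 of them assembly factors. All 32 passed 10 FPKM in both libraries, and their median was 343 FPKM. With them complex I had 35 genes, all past the limit, with a median of 264.1 FPKM. The highest of the 32 genes were *ucr-11* (F57B10.14) at 2296 ± 277 FPKM and *cox-7C* (F26E4.6) at 2261 ± 208 FPKM (SD, n = 2). The 6 subunit genes of complex IV now ranged from 889 to 2261 FPKM, all above every gene of complex II. Of the 3 assembly factors, *cox-14* (T20G5.14) was the highest, with 281 FPKM in library 1 and 214 FPKM in library 2. *cox-19* (F45H11.5) had 34.4 FPKM in library 1 and 87.6 FPKM in library 2, and *cox-18* was low in both libraries at 15.9 and 12.3 FPKM.

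Genes that feed the chain or use its product were looked up for context. Of 18 genes listed for the TCA cycle and pyruvate dehydrogenase all passed the limit. Their median was 177 FPKM, and they ran from 14.5 ± 5.51 FPKM for *idhg-2* to 1106 ± 21.1 FPKM for *mdh-1*. Whether the malate dehydrogenase of *mdh-1* is the mitochondrial one was not tested. The next highest gene was *cts-1* at 518 ± 125 FPKM (SD, n = 2). Of 19 glycolytic genes 16 had a row and 15 passed. The hexokinase genes *hxk-1*, *hxk-2* and *hxk-3* had no row under these symbols, and rows under sequence names were not sought. The median of the 16 genes was 352 FPKM, *enol-1* was highest at 1764 ± 264 FPKM (SD, n = 2), and *pfk-1.2* was listed at 0 in library 1. Cytochrome c and ubiquinone carry electrons between the complexes. Of 10 genes for cytochrome c and for ubiquinone synthesis 8 passed, and their levels ranged widely. The cytochrome c gene *cyc-2.1* had 3464 and 2916 FPKM, whereas its paralog *cyc-2.2* was listed at 0 in library 1 and had 3.40 FPKM in library 2. Among the ubiquinone genes *coq-3* was highest at 188 ± 14.2 FPKM (SD, n = 2), and *clk-1* had 51.3 ± 5.21 FPKM.

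Of 4 ADP/ATP carrier genes, *ant-1.1* had 8310 FPKM in library 1 and 6789 FPKM in library 2, and *ant-1.2*, *ant-1.3* and *ant-1.4* stayed under 2 FPKM, with *ant-1.2* and *ant-1.3* listed at 0 in library 1. The ATP synthase inhibitor genes *mai-2* and *mai-1* had 1121 ± 154 and 253 ± 57.7 FPKM (SD, n = 2), and *mai-2* was close to *atp-4*. The machinery that makes the mitochondrially encoded subunits was lower. Of 63 genes for mitochondrial ribosomal proteins 59 passed. Their median was 39.2 FPKM, and *mrps-11* was the top one with 137 ± 37.7 FPKM. Of 5 assembly factors outside the rule 3 passed, and the highest of them, *sco-1*, had 18.4 ± 2.32 FPKM (SD, n = 2). In the plot of levels by gene list, these 5 assembly factors lie at the low end. *cox-14*, *cox-18* and *cox-19* are not in that list. The median of the 37 genes lies above that of expressed genes.

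**Figure D4:**
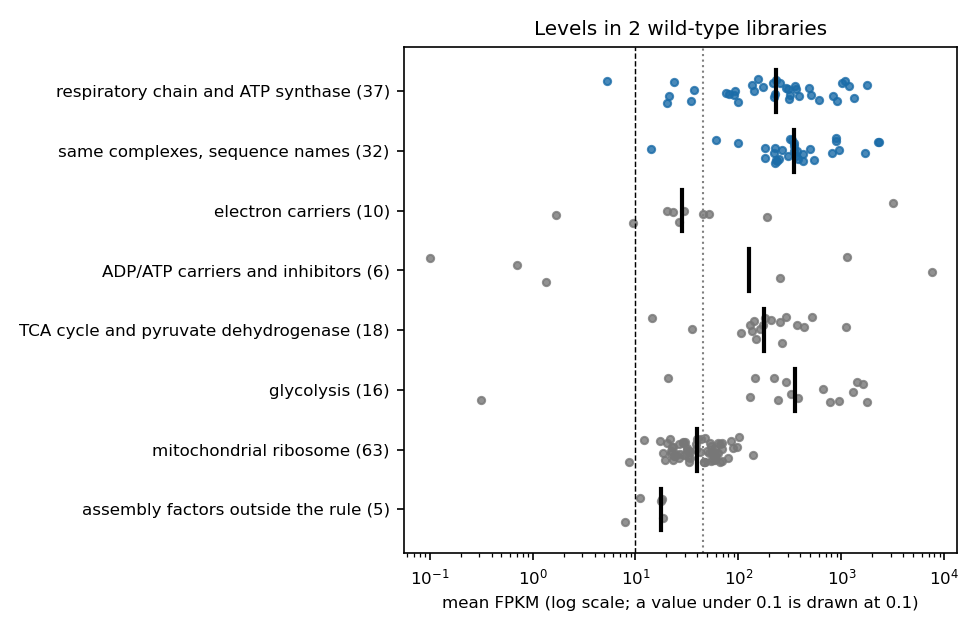
Mean FPKM over 2 wild-type libraries (log scale) of each gene, for the 37 genes, the 32 genes of the same complexes under sequence names and 6 related lists, with the number of genes in parentheses and the median of each list as a black bar. The dashed line is 10 FPKM and the dotted line the median of expressed genes. The medians run from 17.7 FPKM for the list of 5 assembly factors to 352 FPKM for glycolysis. The assembly factors *cox-14*, *cox-18* and *cox-19* are drawn among the 32 genes.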

How the data were processed

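The 2 wild-type samples were analysed. The authors aligned the reads by TopHat and estimated by Cufflinks the FPKM of every gene with bounds of a 95% interval; the deposited values are these FPKM, normalized for transcript length and mapped reads. The submitters' processing notes name the build ce10, and program versions are not given in the sources used here. Each library had 42518 rows, and its depth on genes is unknown. The libraries were joined by name and locus, with 11 names turned into dates in library 1 restored from library 2. Strain and number tied each library to 1 sample, and no per-sample column was left over. Of several rows of a symbol, a row past the limit with the highest mean was kept. The members and gene lists were chosen with earlier results of these data known. Members, list genes past the limit with the highest or lowest mean and genes listed at 0 were named; other names were chosen after their values were seen. Markers were, for 9 cell types, 4 to 9 genes each. Transcript lengths and coordinates are from WBcel235 (Ensembl release 115), and no locus of the files was converted. The calculations were tested on simulated data and used Python 3.11.15, numpy 2.4.6, pandas 2.3.3 and matplotlib 3.10.9. Alternatives were other limits, TPM, upper-quartile scaling, other pseudocounts, other means, summed rows and each library left out. Values of 2 of the 37 genes are not reported here singly, though counts and medians hold them.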

Additional observations from a re-analysis of the deposited data

How the results depend on the processing

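No paired analysis was possible because the 2 libraries belong to 1 group. With a limit of 100 FPKM, 3 genes of complex II and 0 assembly factors passed, against 5 and 3 at 10 FPKM. On the TPM scale, which multiplies each library by 1 factor, the median over the 37 genes was 133.1, and by complex it was 126 (I), 174.6 (II), 121.6 (III), 717.6 (IV), 16.73 (assembly) and 409.4 (ATP synthase). With 1 library left out, the median over the 37 genes ranged from 236.5 to 266.6 FPKM, and that of complex I from 180.0 to 226.3 FPKM. Adding the genes under sequence names and leaving out the assembly factors were chosen after seeing the data. With the genes under sequence names added, 68 genes passed the limit, 1 gene (*cox-19*) differed over 2-fold between the libraries, and the medians were 305.3 FPKM in all, 264.1 (I), 252.8 (III), 36.96 (assembly) and 823.9 (ATP synthase). Without the assembly factors the median was 287.4 FPKM. The share of summed FPKM, 0.822% on average, was 0.877% among expressed genes only. Summing several rows of a symbol changed only *nuo-3* among the 37 levels beyond its SD, to 2262 FPKM. With 2 libraries, leaving out 1 gives the value of the other, so it says nothing about stability: *sdha-1* over *sdha-2* was then 5.89 or 2.92, and *ucr-2.1* over *ucr-2.3* 7.10 or 3.56. No row of the deposited values lay on the mitochondrial genome, so the totals already lack its genes.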
